A study of Mus musculus with 12 samples.

Results

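The 7 genes described here form the glucocorticoid receptor and response set: *Nr3c1*, which encodes the glucocorticoid receptor, *Hsd11b1*, which regenerates its hormone inside cells, and *Fkbp5*, *Tsc22d3*, *Zbtb16*, *Sgk1* and *Dusp1*, which are known to be switched on by glucocorticoids in many tissues. They were named from these roles, with earlier results of these data known, they are 7 of 52550 genes in the count table, and all 7 were among the 15885 of 21950 protein-coding genes that had enough counts to be tested. RNA was sequenced from the whole lungs of 12 C57Bl/6J mice on postnatal day 5, each mouse giving 1 library, with 4 groups of 3 mice, in a model of bronchopulmonary dysplasia made by systemic inflammation after birth. Wild-type (WT) mice received phosphate-buffered saline (WT PBS, replicates 3, 4 and 5) or lipopolysaccharide (WT LPS, replicates 9, 10 and 11), and mice heterozygous for adrenomedullin received the same agents (replicates 6, 7 and 8 with PBS, named *Adm*+/- PBS, and replicates 1, 2 and 12 with LPS, named *Adm*+/- LPS). Lipopolysaccharide of *Escherichia coli* O55:B5 was injected into the peritoneum at 6 mg/kg once a day for 3 days, PBS was injected in an equal volume, and lungs were collected 6 h after the last injection. The *Adm*+/- mice carry 1 functional copy of the gene in every cell of the body, so that no single cell type is targeted, and the labels name neither litter, sex nor batch. The comparison asks how the glucocorticoid arm of the lung responded to inflammation and whether that response differed with the dose of adrenomedullin, a vasoactive and angiogenic peptide.

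Glucocorticoids enter cells and bind the receptor, which waits in the cytoplasm in a complex of heat shock proteins and co-chaperones, moves to the nucleus and binds DNA at glucocorticoid response elements. In the lung this pathway drives the maturation of the distal airspaces around birth and restrains inflammation, and the adrenal hormone itself rises in systemic inflammation. *Fkbp5* encodes a co-chaperone that lowers the affinity of the receptor for its hormone, *Tsc22d3* encodes the anti-inflammatory protein GILZ, *Zbtb16* the transcription factor PLZF, *Sgk1* a kinase that raises sodium transport in epithelia, and *Dusp1* a phosphatase that switches off stress-activated MAP kinases.

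The response element is an inverted pair of 6-base arms, TGTTCT and its reverse complement AGAACA, held 3 bases apart. RefSeq promoter windows (GRCm38.p6, from 250 bases before to 50 after a transcript start) were matched for 5 of the 7 genes, with 1 window for *Hsd11b1*, 1 for *Fkbp5*, 3 for *Tsc22d3*, 6 for *Sgk1* and 1 for *Dusp1*. The windows were searched on both strands for exact letters, and 3 are printed because they hold the element, a single arm, or the element that cAMP signalling uses. The first, chr10:21993640-21993889 (plus strand), covers the 250 bases before 1 of the *Sgk1* starts and has the whole inverted pair in capitals, at 189 to 175 bases before the start. The second, chr17:26508520-26508722 (minus strand), lies before the *Dusp1* start and has in capitals a cAMP response element, TGACGTCA, at 143 to 136 bases before the start and an E-box, CACGTG, at 126 to 121. The third, chrX:140600660-140600772 (minus strand), lies before 1 of the *Tsc22d3* starts and has in capitals a single arm at 185 to 180.
Sgk1: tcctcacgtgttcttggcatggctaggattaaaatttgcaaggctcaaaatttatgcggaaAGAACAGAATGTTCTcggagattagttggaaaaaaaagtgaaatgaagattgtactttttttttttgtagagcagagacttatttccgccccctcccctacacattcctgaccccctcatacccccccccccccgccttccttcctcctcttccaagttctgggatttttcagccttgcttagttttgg
Dusp1: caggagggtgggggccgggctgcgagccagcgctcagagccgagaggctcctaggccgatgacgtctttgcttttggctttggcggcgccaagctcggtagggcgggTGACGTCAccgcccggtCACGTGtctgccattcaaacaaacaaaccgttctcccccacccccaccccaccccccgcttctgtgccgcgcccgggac
Tsc22d3: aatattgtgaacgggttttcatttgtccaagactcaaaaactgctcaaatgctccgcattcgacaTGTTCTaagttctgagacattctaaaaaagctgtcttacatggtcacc
The *Dusp1* and *Tsc22d3* stretches end where the annotation of any transcript begins an untranslated region. The inverted pair was found in 3 of 32851 windows of all genes (0.0091%), and its search was added after the *Sgk1* matches had been seen. The looser core ACANNNTGT, which the pair contains, was in 6.85% of all windows, TGTTCT on either strand in 19.0%, TGACGTCA in 1.79% and CACGTG in 7.15%. The printed *Sgk1* window also held, in lower case, an E-box at 246 to 241 bases and a further arm at 242 to 237 that overlaps it. Other *Sgk1* windows held an arm at 195 to 190 bases, a core at 127 to 119 bases and an arm at 13 to 8 bases before their starts, and the *Fkbp5* window held an E-box at 169 to 164 bases. A match in these letters is a description of the sequence and was not tied to binding by any measurement here.

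The libraries held between 22382535 and 38062873 counts each (median 28494877). Markers of type I and type II pneumocytes and of endothelium were present in all 12 libraries. *Adm* itself was low, at 3.96 to 7.09 CPM (counts scaled to library size by TMM) in WT PBS and 2.87 to 4.58 in *Adm*+/- PBS, and at 4.46 to 8.15 in WT LPS and 3.74 to 6.28 in *Adm*+/- LPS. It was lower in *Adm*+/- mice by -0.50 ± 0.32 (log2 fold change ± SE) in PBS and -0.55 ± 0.31 in LPS, with edgeR adjusted p of 0.999 and 0.480, and the ranges of the genotypes overlapped, so the counts of the targeted gene do not separate them. Protein-coding genes held 77.8% of the counts in WT PBS replicate 5 and 80.1% in *Adm*+/- PBS replicate 6, against 84.3 to 87.6% in the others. In whole lung, fewer cells of a type and less RNA per cell cannot be told apart.

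The WT PBS replicate 4 library stood apart from the other PBS libraries in several of these genes, which was seen in the values and not fixed beforehand. Its *Zbtb16* level was 179.5 CPM, whereas the other 5 PBS libraries of both genotypes ranged from 10.8 to 18.8 with a median of 13.6. *Tsc22d3* was at 194 CPM there and at 81.4 to 95.6 in the others, and *Fkbp5* at 68.5 against 25.1 to 53.4. This one mouse, labelled as given PBS, thus had *Zbtb16* at 39.002% of the mean of the WT LPS mice, *Tsc22d3* at 46.9% and *Fkbp5* at 19.5%. On the log2 scale *Zbtb16* lay 3.71 above the mean of the other 5, and 7 of the 15885 tested genes lay further above. Those 7 were *Serpina3n* (5.76), *Saa3* (4.87), *Serpina3i* (4.50), *Serpina3g* (4.37), *Gm14226* (4.35), *Serpina3f* (3.85) and *Chrna7* (3.79), and *Serpina3n* and *Saa3* encode acute-phase proteins. The level of *Nr3c1* in the same library was 223 CPM, inside the 153 to 261 of the others. The summed level of 12 neutrophil markers was 186 CPM in WT PBS replicate 4 and 40.8 to 68.5 in the other PBS libraries, or 8.59% of the WT LPS mean. The part of neutrophils, of handling or of the label in this difference was not tested, and the main results that rest on the library are given with and without it.

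LPS raised 4 of the 7 genes in WT mice and 5 of 7 in *Adm*+/- mice, none fell, and the receptor gene itself was among those that did not pass the test. A gene was called when edgeR's quasi-likelihood test of all 12 libraries gave an adjusted p under 0.05 and the log2 fold change exceeded 0.5 in size. *Fkbp5*, *Tsc22d3*, *Zbtb16* and *Dusp1* rose in both genotypes, and *Hsd11b1* rose in *Adm*+/- mice. The WT count was 2 of 7 without WT LPS replicate 9 or 10 and in a fit of the WT libraries alone. All-gene WT calls were 1443 of 16026 without replicate 9 and 2670 of 16070 without replicate 10. With the WT libraries alone they were 1152 of 15591, against 2791 of 15885 with all 12 libraries. Over all tested genes 17.6% were called in WT mice (10.5% higher and 7.09% lower) and 25% in *Adm*+/- mice (12.8% higher and 12.2% lower). The median log2 fold change of the 7 genes was 0.86 in WT and 1.12 in *Adm*+/- mice, against 0.01 and -0.01 over all tested genes. The PBS and LPS libraries did not overlap for 6 of the 7 genes in WT mice, where 36.2% of all tested genes did not overlap, and for 5 of 7 in *Adm*+/- mice, where 53.7% did not.

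**Figure D1:**
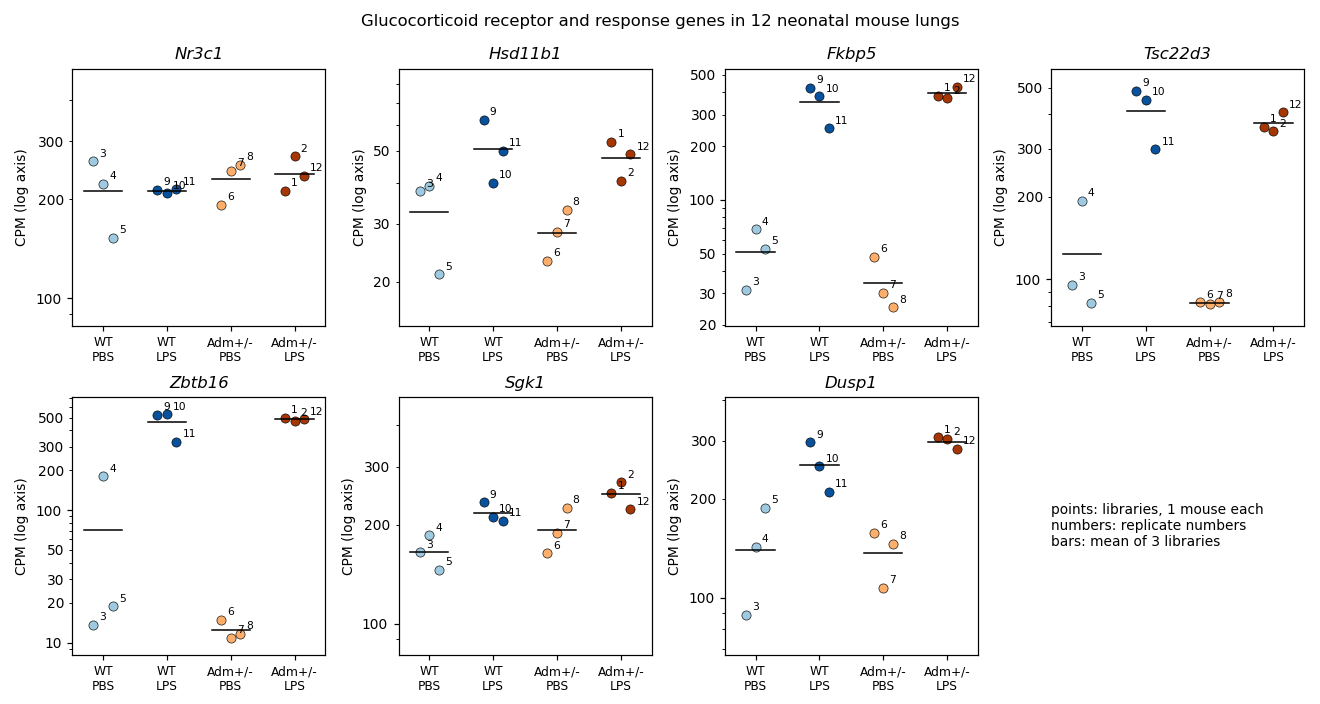
Level of each of the 7 genes in CPM (log axis) in the 12 libraries, with the replicate number beside each point and a bar at the mean of the 3 libraries of a group. *Zbtb16*, *Fkbp5* and *Tsc22d3* separate LPS from PBS in both genotypes, WT PBS replicate 4 lies between them for *Zbtb16* and *Tsc22d3*, and *Nr3c1* shows no separation.

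*Nr3c1* (ENSMUSG00000024431, mm10 chr18:39410545-39519421, minus strand) was at 261, 223 and 153 CPM in WT PBS replicates 3, 4 and 5, and at 214, 209 and 215 CPM in WT LPS replicates 9, 10 and 11. In *Adm*+/- mice it was at 193, 244 and 255 CPM in PBS (replicates 6, 7 and 8) and at 212, 270.1 and 236 CPM in LPS (replicates 1, 2 and 12). The groups overlapped in both genotypes, and the 3 WT LPS mice lay within a narrow band inside the WT PBS range. The log2 fold change was -0.000197 ± 0.18 (SE) in WT and 0.05 ± 0.18 in *Adm*+/- mice, with edgeR adjusted p of 0.9995 and 0.852. The 95% intervals ran from -0.39 to 0.39 and from -0.33 to 0.44, and a change of receptor RNA within these bounds was not excluded with 3 mice per group.

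*Hsd11b1* (chr1:193221634-193264075, minus strand) encodes the reductase that converts inert 11-dehydrocorticosterone back to corticosterone in the endoplasmic reticulum. It was at 37.6, 39.2 and 21.1 CPM in the WT PBS mice (replicates 3, 4 and 5) and at 62.0, 39.96 and 50.1 in the WT LPS mice (replicates 9, 10 and 11). In *Adm*+/- mice the PBS values were 23.2, 28.3 and 33.04 CPM and the LPS values 53.2, 40.5 and 48.8. Every LPS library was above every PBS library of its genotype, although in WT mice the lowest LPS and the highest PBS library nearly met. It rose in *Adm*+/- mice by 0.75 ± 0.24 on the log2 scale (edgeR adjusted p = 0.0323), and the WT value of 0.63 ± 0.24 did not pass (adjusted p = 0.0756). The *Adm*+/- call was lost when any of 4 single libraries was left out, *Adm*+/- PBS replicate 6 (adjusted p = 0.120) or 7 (0.0768) or *Adm*+/- LPS replicate 1 (0.106) or 12 (0.0854), and DESeq2 called the WT change (adjusted p = 0.0407).

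*Fkbp5* (chr17:28399094-28517527, minus strand) showed one of the clearest rises. It was at 31.4, 68.5 and 53.4 CPM in WT PBS replicates 3, 4 and 5 and at 422, 380.1 and 251 CPM in WT LPS replicates 9, 10 and 11. In *Adm*+/- mice the 3 PBS libraries had 47.9, 30.3 and 25.1 CPM and the 3 LPS libraries 383, 371 and 428. The lowest LPS library was several times above the highest PBS library in each genotype. The rise was 6.88-fold in WT mice (2.78 ± 0.31 log2, edgeR adjusted p = 0.000259) and 11.5-fold in *Adm*+/- mice (3.52 ± 0.32, adjusted p = 6.40e-05). Both calls held under every alternative tried, with log2 values from 2.52 to 3.05 and from 3.33 to 3.83.

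*Tsc22d3* (chrX:140539528-140600659, minus strand) was at 95.6, 194 and 82.2 CPM in WT PBS replicates 3, 4 and 5 and at 488, 452 and 298 CPM in WT LPS replicates 9, 10 and 11. The *Adm*+/- PBS libraries lay at 82.3, 81.4 and 82.7 CPM and the *Adm*+/- LPS libraries at 359.7, 347 and 407. The *Adm*+/- PBS mice were almost identical, and among the WT PBS mice replicate 4 lay above the other two. The rise was 3.34-fold in WT (1.74 ± 0.28 log2, edgeR adjusted p = 0.00189) and 4.52-fold in *Adm*+/- mice (2.18 ± 0.29, adjusted p = 0.000286). With WT PBS replicate 4 left out, *Tsc22d3* rose by 2.21 in WT mice.

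*Zbtb16* (chr9:48654297-48836222, minus strand) had the widest span of the 7 genes, 49.1-fold between its lowest and highest library. It was at 13.6, 179.5 and 18.8 CPM in WT PBS replicates 3, 4 and 5 and at 523, 531 and 327 CPM in WT LPS replicates 9, 10 and 11. In *Adm*+/- mice it was at 14.9, 10.8 and 11.6 CPM in PBS and at 499, 475 and 484 CPM in LPS. The *Adm*+/- groups were tight and far apart, and the log2 SD among the 3 *Adm*+/- LPS mice was 0.036 against a median of 0.12 over all tested genes. The fitted rise was 5.29 ± 0.86 on the log2 scale in *Adm*+/- mice, or 39.2-fold (edgeR adjusted p = 0.000958), and 2.70 ± 0.76 in WT mice, or 6.51-fold (adjusted p = 0.0270). With WT PBS replicate 4 left out, the WT rise became 4.83 (adjusted p = 1.50e-05). The WT call did not hold when WT PBS replicate 5 (2.26, adjusted p = 0.0544), WT LPS replicate 9 (2.59, 0.0818) or WT LPS replicate 10 (2.59, 0.0534) was left out, nor without both libraries of lowest protein-coding share (2.26, 0.0612), nor in a fit of the WT libraries alone (2.70, 0.119), all of which keep WT PBS replicate 4.

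*Sgk1* (chr10:21882184-21999903, plus strand), whose promoter above carries the full inverted pair, moved little. It was at 165, 185 and 146 CPM in WT PBS replicates 3, 4 and 5 and at 233, 211 and 205 CPM in WT LPS replicates 9, 10 and 11. The *Adm*+/- values were 164, 189 and 225 CPM in PBS and 249, 269 and 223 CPM in LPS. The WT groups did not overlap, whereas in *Adm*+/- mice the lowest LPS library lay just under the highest PBS library. The log2 fold changes were 0.39 ± 0.13 in WT and 0.36 ± 0.13 in *Adm*+/- mice, and with edgeR adjusted p of 0.0569 and 0.0601 they passed neither part of the call rule. The 95% intervals were 0.10 to 0.68 and 0.07 to 0.65. They overlapped those of *Dusp1* in the same genotype, 0.34 to 1.37 and 0.60 to 1.64. Those of *Tsc22d3*, 1.12 to 2.36 and 1.55 to 2.80, lay higher. The genes were not tested against each other.

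*Dusp1* (chr17:26505590-26562128, minus strand) was at 88.7, 143 and 187 CPM in WT PBS replicates 3, 4 and 5 and at 296, 251 and 209.8 CPM in WT LPS replicates 9, 10 and 11. In *Adm*+/- mice it was at 157, 107 and 146 CPM in PBS and at 307, 302 and 284 CPM in LPS. Each LPS library was above each PBS library of its genotype. It rose 1.81-fold in WT (0.86 ± 0.24 log2, edgeR adjusted p = 0.0255) and 2.18-fold in *Adm*+/- mice (1.12 ± 0.24, adjusted p = 0.00443). The WT call was lost without WT PBS replicate 4 (0.87, edgeR adjusted p = 0.0538), WT LPS replicate 9 (0.72, 0.114) or WT LPS replicate 10 (0.86, 0.0507), and in a fit of the WT libraries alone (0.86, 0.0934). *Dusp1* is also an immediate early gene that stress and handling induce, and the summed level of 10 such genes was 450.4 to 721 CPM in WT PBS, 633 to 743 in WT LPS, 488 to 573 in *Adm*+/- PBS and 789 to 875 in *Adm*+/- LPS, with 2 of 10 called higher in WT and 4 of 10 higher and 1 lower in *Adm*+/- mice. The part of these in the *Dusp1* result was not tested. Its exons overlap those of *Ergic1* on the opposite strand, and whether the counting used strand is not given in the sources used here.

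Per kilobase of exon, which makes levels comparable between genes, *Dusp1* was highest in PBS, at 42.1 ± 14.9 CPM per kb in WT (mean ± SD, n = 3) and 41.3 ± 7.97 in *Adm*+/- mice. *Sgk1* came next at 33.7 ± 4.07 and 39.2 ± 6.26, and *Tsc22d3* (28.5 ± 14.0 and 18.9 ± 0.151) and *Nr3c1* (27.6 ± 7.17 and 30.0 ± 4.31) followed. The WT values of these 4 neighbours did not differ beyond their spread. *Hsd11b1* (7.67 ± 2.36 and 6.63 ± 1.16), *Fkbp5* (5.40 ± 1.97 and 3.64 ± 1.26) and *Zbtb16* (13.4 ± 17.9 and 2.35 ± 0.409) were the low genes of PBS lungs. The WT mean of *Zbtb16* rests on WT PBS replicate 4, at 33.98 CPM per kb against 2.58 and 3.55 in replicates 3 and 5, where *Zbtb16* was below *Fkbp5* (3.32 and 5.64) and so the lowest of the 7. In LPS the order changed, since *Zbtb16* stood at 87.1 ± 21.9 CPM per kb in WT and 92.0 ± 2.31 in *Adm*+/- mice, beside *Tsc22d3* at 95.1 ± 23.3 and 85.5 ± 7.31 and *Dusp1* at 76.2 ± 13.1 and 89.9 ± 3.72. These top 3 did not differ beyond their spread in either genotype. *Sgk1* (44.2 ± 3.02 and 50.3 ± 4.73), *Fkbp5* (37.1 ± 9.39 and 41.6 ± 3.17), *Nr3c1* (27.6 ± 0.414 and 31.1 ± 3.79) and *Hsd11b1* (11.9 ± 2.60 and 11.2 ± 1.52) followed in that order in both genotypes. *Zbtb16* thus went from the lowest mean of the 7 in *Adm*+/- PBS lungs to one of these top 3 in *Adm*+/- LPS lungs.

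None of the 7 genes differed between genotypes in LPS, in PBS or in the size of the LPS response by the call rule. In LPS the log2 fold changes of *Adm*+/- against WT ran from -0.15 for *Tsc22d3* to 0.24 for *Dusp1*, 0 of 7 had an unadjusted p below 0.05 against 2275 of 15885 genes, and 2.05% of all tested genes were called by edgeR. In PBS, where edgeR called 0% of all tested genes, 1 of the 7 had an unadjusted p below 0.05, as did 344 of all tested genes. That gene was *Zbtb16*, lower in *Adm*+/- mice by 2.51 on the log2 scale with an edgeR adjusted p of 0.999 (unadjusted 0.00706). Without WT PBS replicate 4 its value was -0.38. The PBS libraries of the genotypes overlapped for all 7 genes, and the share of all tested genes that overlapped between genotypes was not computed. DESeq2 and limma-voom also called 0 of the 7 in each of these contrasts, where DESeq2 gave *Zbtb16* no adjusted p.

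The difference of the LPS response, *Adm*+/- minus WT, was called for 0.145% of all tested genes and for 0 of the 7. It was 2.59 ± 1.03 on the log2 scale for *Zbtb16* (unadjusted p = 0.0284, edgeR adjusted p = 0.542), the only 1 of the 7 with an unadjusted p below 0.05, as had 1247 of 15885 genes. It was 0.74 ± 0.42 for *Fkbp5* (adjusted p = 0.753 by edgeR) and 0.44 ± 0.39 for *Tsc22d3* (0.946). For *Dusp1*, *Hsd11b1*, *Nr3c1* and *Sgk1* the differences were 0.27, 0.12, 0.05 and -0.03. In LPS the levels of all 7 genes also overlapped between the genotypes, again with no share over all tested genes to set beside this. When WT PBS replicate 4 was left out, the differences fell to 0.46 for *Zbtb16*, 0.47 for *Fkbp5* and -0.04 for *Tsc22d3*. No other library had such an effect on *Zbtb16*, whose difference lay between 2.40 and 3.08 with any other library left out. The 95% intervals in the fit of all 12 libraries were wide for *Zbtb16* (0.33 to 4.85) and narrower for *Sgk1* (-0.44 to 0.38) and *Nr3c1* (-0.49 to 0.60).

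**Figure D2:**
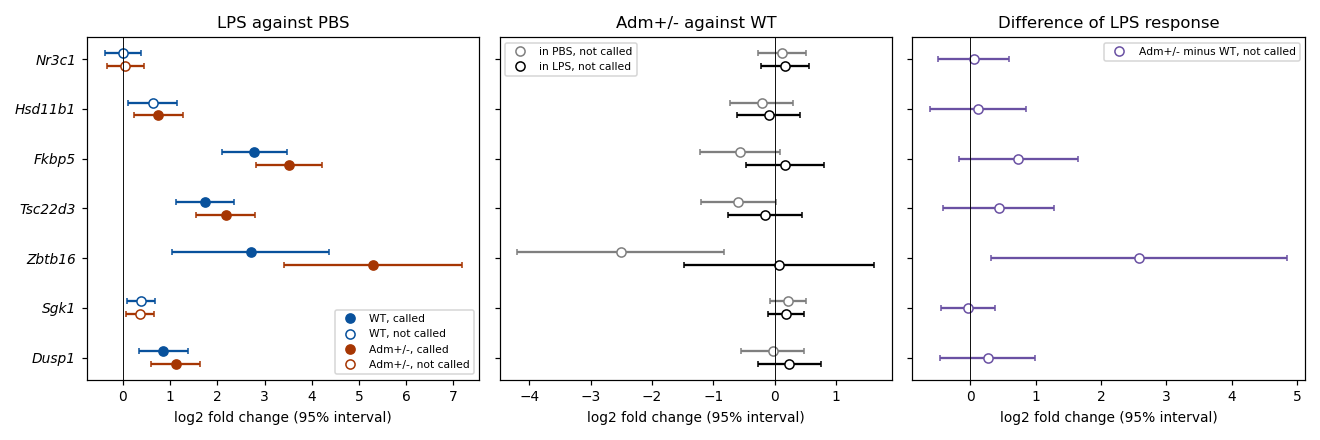
Fitted log2 fold changes with 95% intervals for the 7 genes, from left to right LPS against PBS in each genotype, *Adm*+/- against WT in PBS and in LPS, and the difference of the LPS responses. Filled points passed the call rule, and no point is filled outside the left panel.

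**Figure D3:**
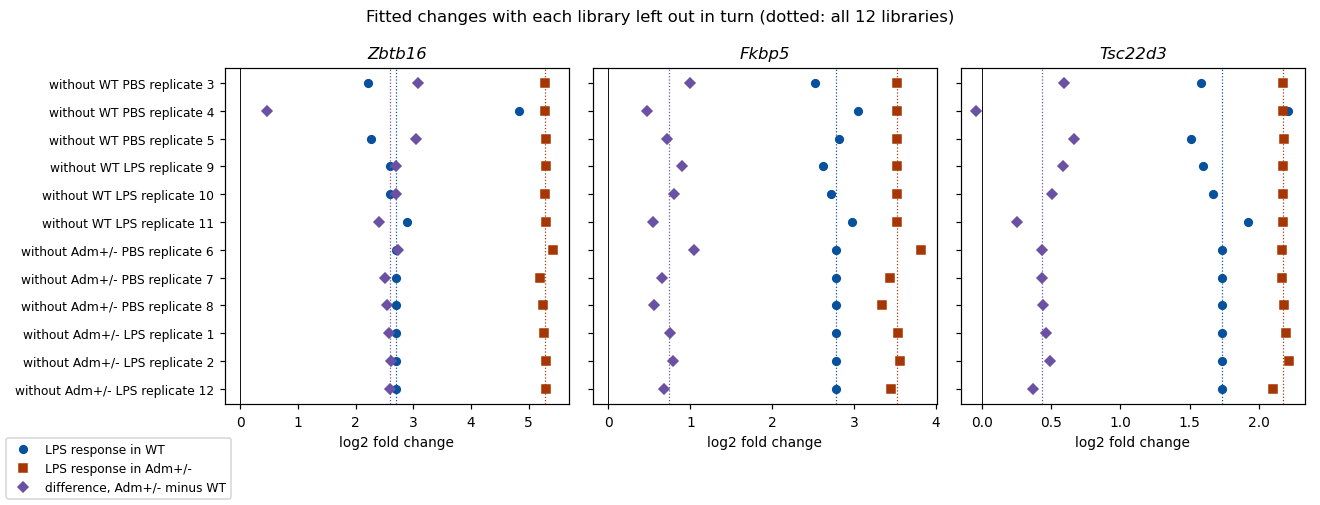
Fitted log2 LPS responses of *Zbtb16*, *Fkbp5* and *Tsc22d3* in WT (circles) and *Adm*+/- mice (squares) and their difference (diamonds), 1 row per library left out, with dotted lines at the fit of all 12. Leaving out WT PBS replicate 4 moves the WT response of *Zbtb16* from 2.70 to 4.83 and the difference from 2.59 to 0.46.

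The order of the mice within a group was compared across the 7 genes. WT LPS replicate 11 was the lowest of its group for *Fkbp5*, *Tsc22d3*, *Zbtb16*, *Sgk1* and *Dusp1*, and WT LPS replicate 9 was the highest for 5 of the 7 genes. WT PBS replicate 4 was the highest of its group for 5 of the 7. WT PBS replicate 5 was highest for *Dusp1* and lowest for *Nr3c1*, *Hsd11b1*, *Tsc22d3* and *Sgk1*. *Adm*+/- PBS replicate 6 was highest for *Fkbp5*, *Zbtb16* and *Dusp1* and lowest for *Nr3c1*, *Hsd11b1* and *Sgk1*. *Adm*+/- LPS replicate 12 was highest for *Fkbp5* and *Tsc22d3* and lowest for *Sgk1* and *Dusp1*. Markers of skeletal muscle, which is not part of the lung, also varied in the WT LPS group, with a summed level of 18 genes of 2482 CPM in replicate 9, 2779 in replicate 10 and 1212 in replicate 11, against 172 to 289 in WT PBS. The same sum was 158 to 181 in *Adm*+/- LPS and 163 to 228 in *Adm*+/- PBS, and in those mice *Zbtb16*, *Fkbp5* and *Tsc22d3* were called higher in LPS by 5.29, 3.52 and 2.18 on the log2 scale. Of 17 muscle markers tested, 16 were called higher in WT LPS and 1 in *Adm*+/- LPS. Squamous epithelium markers, 16 genes, summed to 30.5 to 3054 CPM in WT LPS, 6.34 to 42.2 in *Adm*+/- LPS and 1.63 to 5.25 in the PBS libraries. Neutrophil markers rose in both genotypes, with 10 of 11 tested called in WT and 11 of 11 in *Adm*+/- mice, and their sum went from 59.7 to 186 CPM in WT PBS to 1701 to 2966 in WT LPS and from 40.8 to 68.5 to 1607 to 1924 in *Adm*+/- mice. The part of muscle, neutrophils and squamous tissue in the changes of the 7 genes was not tested.

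The tested genes nearest in profile to each of the 7, by the root mean square difference of centred log2 CPM over the 12 libraries, were taken from 14594 genes with a mean of at least 1 CPM. *Klf9*, a transcription factor also induced by glucocorticoids, was nearest to *Tsc22d3* (0.18), followed by *Gfpt2* (0.23), which feeds the hexosamine pathway. The *Klf9* rise in log2 units was 1.51 in WT (edgeR adjusted p = 0.00937) and 2.43 in *Adm*+/- mice (0.000441). *Klf9* stood at 96.0 CPM in WT PBS replicate 4 and at 37.6 and 33.98 in the other WT PBS libraries, and its WT rise was 2.15 without that library. In a fit of the WT libraries alone its WT call was lost (1.505, edgeR adjusted p = 0.0692). *Retnlg* (0.52) and *Mmp8* (0.57), both neutrophil genes, were nearest to *Zbtb16*. *Lrrc25* (0.23) and the kinase *Map3k6* (0.24) were nearest to *Fkbp5*, and *Rgcc* (0.18) was among the nearest to *Dusp1*. *Nr3c1* lay nearest to *Gphn* (0.060) and *Lrrc40* (0.065), *Hsd11b1* to *Vipr2* (0.090) and *Tcp11l2* (0.12), and *Sgk1* to *Hibadh* (0.087) and *Sbf2* (0.096). A gene that changed little has near neighbours more easily, so the distances are not comparable between the 7.

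Beyond the 7 genes, 50 other genes known to be induced by glucocorticoids rose widely and none fell by the call rule. In WT mice 31 of 50 (62%) were called higher and in *Adm*+/- mice 36 of 50 (72%), where 10.5% and 12.8% of all tested genes were, with median log2 fold changes of 0.99 and 1.61. In a fit of the WT libraries alone 19 of 50 were called in WT mice, where 1152 of all 15591 tested genes were called in either direction. The 29 genes called in both were 93.5% of the WT and 80.6% of the *Adm*+/- calls, and 12 were called in neither. *Crispld2*, a secreted lung protein induced by glucocorticoids late in gestation, rose from 15.4 ± 2.61 to 50.96 ± 5.02 CPM in WT (1.72 log2, edgeR adjusted p = 0.000117) and from 10.2 ± 0.631 to 45.5 ± 9.25 in *Adm*+/- mice (2.15, adjusted p = 4.20e-05). *Lcn2*, an iron-sequestering protein, rose by 3.99 in WT (edgeR adjusted p = 0.000266) and by 5.43 in *Adm*+/- mice (5.91e-05). *Il1rn*, the interleukin 1 receptor antagonist, rose by 3.66 in WT (edgeR adjusted p = 0.000480) and by 4.79 in *Adm*+/- mice (7.68e-05), and *Mt1*, a metallothionein, by 2.88 (0.000703) and 4.20 (7.12e-05). *Lcn2*, *Il1rn*, *Mt1* and other genes of the list such as *Nfkbia* and *Tnfaip3* are also known to be induced by inflammatory signals without glucocorticoids, so the list is not specific to glucocorticoids.

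Between genotypes 1 of the same 50 genes passed the call rule, in LPS (2%, where 2.05% of all tested genes did). The difference of the LPS response was called for 0 of 50 by edgeR, DESeq2 and limma-voom, with 12 at an unadjusted p below 0.05 by edgeR, as had 1247 of all 15885. It was above 0 for 41 of 50 genes (82%, median 0.54), where 48.8% of all tested genes were above 0, and for 39 of 50 (78%, median 0.34) without WT PBS replicate 4. In PBS, 0 of 50 were called and 9 had an unadjusted p below 0.05 by edgeR, as had 344 of all tested genes. There 5 of 50 (10%) were higher in *Adm*+/- than in WT mice, against 48.1% of all tested genes, and the median was -0.32. Without WT PBS replicate 4 it was 19 of 50 (38%) and the median -0.06. That library was the highest of the 6 PBS libraries for 33 of the 50 genes (66%) and for 4 of the 7 genes described first (57.1%), against 12.8% of all tested genes. In LPS 14 of 50 had an unadjusted p below 0.05 by edgeR, as had 2275 of all tested genes, and 35 of 50 (70%, median 0.19) were higher in *Adm*+/- mice, against 49.2% of all tested genes. There *Cd163*, the haemoglobin scavenger receptor of macrophages, was the single gene called, at 2.57 ± 0.284 CPM in *Adm*+/- and 7.43 ± 1.62 in WT mice (-1.53 ± 0.23 log2, edgeR adjusted p = 0.00541). In PBS *Cd163* was also lower in *Adm*+/- mice, at 3.29 ± 0.413 CPM against 5.55 ± 1.24 in WT, but was not called.

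**Figure D4:**
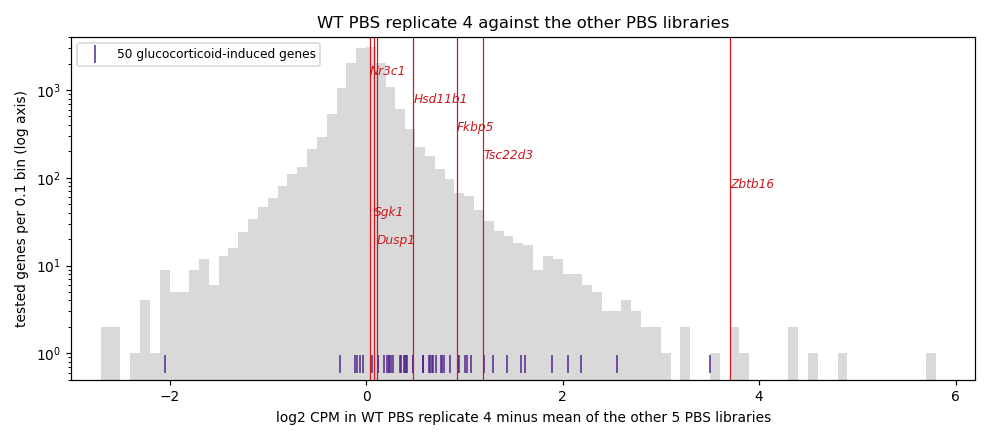
Log2 CPM of WT PBS replicate 4 minus the mean of the other 5 PBS libraries, as a histogram of the 15885 tested genes (gray, counts on a log axis), with ticks for 50 glucocorticoid-induced genes and red lines for the 7 genes. *Zbtb16* (3.71), *Tsc22d3* (1.19) and *Fkbp5* (0.92) lie in the right tail, and *Nr3c1*, *Sgk1* and *Dusp1* lie near 0.

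Of 25 receptor partner genes, which are chaperones, co-chaperones, coregulators and the mineralocorticoid receptor *Nr3c2*, 1 was called higher and 2 lower in each genotype (12%, where 17.6% and 25% of all tested genes were called in WT and *Adm*+/- mice), with medians of -0.01 and 0.00. *Fkbp4*, the co-chaperone that competes with the product of *Fkbp5* for the receptor complex and favours its transport, fell by 0.83 in WT (edgeR adjusted p = 0.0295) and by 1.03 in *Adm*+/- mice (0.00723), from 184 ± 68.2 to 103 ± 15.5 CPM and from 172 ± 43.05 to 84.0 ± 3.02. *Nrip1*, a corepressor of nuclear receptors, rose by 0.52 in WT (edgeR adjusted p = 0.0214) and by 0.74 in *Adm*+/- mice (0.00217). *Calr*, a chaperone of the endoplasmic reticulum, fell by 0.61 in WT (edgeR adjusted p = 0.0280), and *Hdac2*, a deacetylase that the receptor recruits to inflammatory genes, fell by 0.52 in *Adm*+/- mice (0.00185). Each of the 3 WT calls was lost without WT PBS replicate 5, those of *Nrip1* and *Fkbp4* also without WT LPS replicate 9, that of *Calr* also without WT LPS replicate 10, and those of *Calr* and *Fkbp4* also without WT LPS replicate 11. The *Adm*+/- call of *Hdac2* was lost without *Adm*+/- PBS replicate 7 or *Adm*+/- LPS replicate 1. WT PBS replicate 5 held *Fkbp4* at 262 CPM against 142 and 146 in the other WT PBS libraries, and without it the WT value of *Fkbp4* was -0.49. *Adm*+/- PBS replicate 6 was likewise the highest of its group, at 220.4 CPM against 158 and 138. The summed level of 10 lung fibroblast markers was also highest in these libraries of low protein-coding share, at 46353 CPM in WT PBS replicate 5 and 30785 in *Adm*+/- PBS replicate 6 against 13698 to 19913 in the others, and its part in the *Fkbp4* result was not tested. Between genotypes 0 of 25 were called by edgeR, DESeq2 or limma-voom in PBS, in LPS or in the difference, with 1, 2 and 1 at an unadjusted p below 0.05 by edgeR, as had 344, 2275 and 1247 of all 15885 genes. Of all tested genes edgeR called 0%, 2.05% and 0.145%.

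Genes that supply, transport or inactivate corticosteroids were mostly at low levels, and 10 of 17 could be tested. The adrenal enzymes *Hsd3b1*, *Cyp11b1* and *Cyp21a1*, the corticosteroid-binding globulin gene *Serpina6*, and *Crh*, *Crhr1* and *Mc2r* had too few counts. In WT mice 3 of 10 were called higher and 1 lower, where 10.5% and 7.09% of all tested genes were, and in *Adm*+/- mice 3 higher and 2 lower, where 12.8% and 12.2% were, with medians of 0.22 and -0.09. *Abcb1b*, an efflux pump that carries corticosteroids out of cells, rose from 1.75 ± 0.623 to 6.94 ± 2.06 CPM in WT (1.998 log2, edgeR adjusted p = 0.000799) and from 1.70 ± 0.0834 to 9.59 ± 0.974 in *Adm*+/- mice (2.49, 0.000108). *Akr1c14*, which reduces steroid metabolites, rose by 1.19 in WT (edgeR adjusted p = 0.0154) and by 1.34 in *Adm*+/- mice (0.00550). *Hsd11b2*, which inactivates corticosterone and so opposes *Hsd11b1*, fell by 0.93 in WT (edgeR adjusted p = 0.0109), and its *Adm*+/- value of -0.58 did not pass (0.0549), while DESeq2 (-0.57, adjusted p = 0.0315) and limma-voom (-0.58, 0.0430) called it. *H6pd*, which makes the NADPH that the *Hsd11b1* enzyme uses, rose by 0.88 in *Adm*+/- mice (edgeR adjusted p = 0.000562), where *Cyp11a1*, the first enzyme of steroid synthesis, and *Srd5a1*, a steroid reductase, fell by 1.39 (0.00490) and 1.02 (0.0147). The WT calls of *Hsd11b2* and *Akr1c14* were lost without WT LPS replicate 9, and the *Srd5a1* call without *Adm*+/- PBS replicate 6 or *Adm*+/- LPS replicate 1 or 12.

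*Crhr2*, a receptor of the corticotropin-releasing hormone family, was the 1 of 10 supply genes called between genotypes in LPS, where 2.05% of all tested genes were. By edgeR 3 of the 10 had an unadjusted p below 0.05, as had 2275 of 15885 genes. The others, *Hsd11b2* (0.55) and *H6pd* (0.36), were higher in *Adm*+/- LPS but not called (edgeR adjusted p = 0.245 and 0.203). *Crhr2* was at 4.04, 3.66 and 1.31 CPM in WT LPS replicates 9, 10 and 11 and at 0.486, 0.670 and 0.392 CPM in *Adm*+/- LPS, near its PBS levels of 0.466 to 1.16. It rose by 2.39 in WT mice (edgeR adjusted p = 0.00371), and *Adm*+/- LPS lay 2.54 below WT LPS on the log2 scale (log2 fold change -2.54, adjusted p = 0.0130). The difference of the LPS responses was -3.07 ± 0.64 and did not pass by edgeR (adjusted p = 0.129), while DESeq2 called it (0.00382). The genotype call was lost when *Adm*+/- LPS replicate 1 (adjusted p = 0.0856), 2 (0.0547) or 12 (0.0902) was left out. *Crhr2* is known to be expressed in skeletal muscle. Among the WT LPS mice replicate 11 was lowest for both *Crhr2* and the muscle marker sum. Replicate 9 was highest for *Crhr2* and replicate 10 for the muscle marker sum. The part of muscle in this result was not tested.

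**Figure D5:**
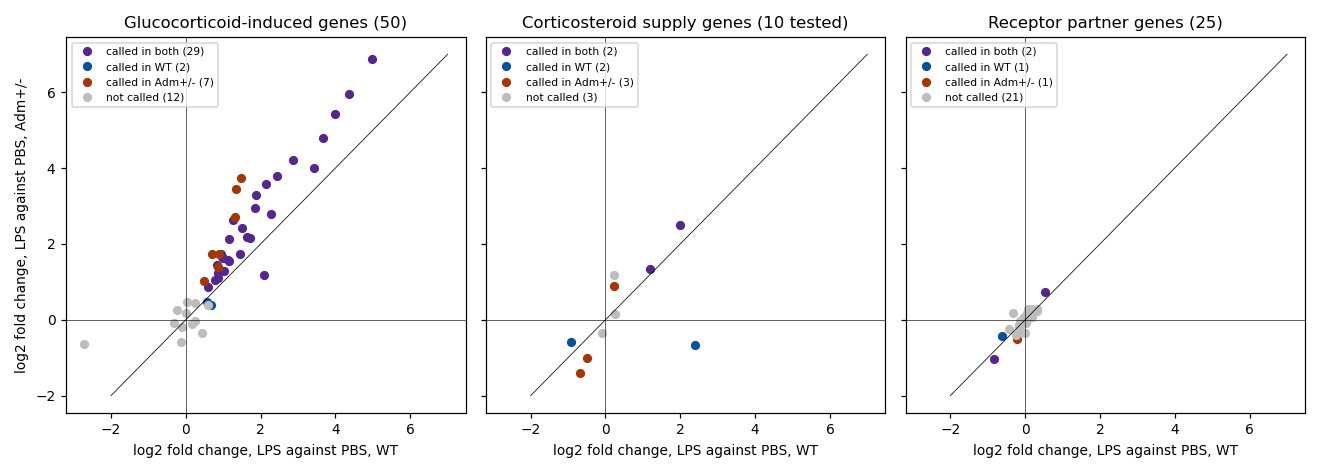
Log2 fold change of LPS against PBS in *Adm*+/- mice (vertical) against WT mice (horizontal) for 50 glucocorticoid-induced genes, 10 corticosteroid supply genes and 25 receptor partner genes, coloured by the genotype in which each was called, with a diagonal of equal change. Of the induced genes 29 were called in both genotypes, 2 in WT and 7 in *Adm*+/- mice, whereas 21 of 25 receptor partner genes were called in neither.

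Of 13 relatives of the 7 genes in the same families 12 were tested, and *Sgk2* was not. In WT mice 4 of 12 (33.3%) were called and in *Adm*+/- mice 3 of 12 (25%), against 17.6% and 25% of all tested genes. *Dusp2*, a nuclear phosphatase of immune cells, rose by 2.48 in WT (edgeR adjusted p = 0.00784) and by 3.50 in *Adm*+/- mice (0.000762), and *Dusp16*, which acts on the stress kinase JNK, rose by 0.81 (0.0183) and 1.36 (0.000681). *Dusp10*, another phosphatase of stress kinases, fell by 0.91 in WT (edgeR adjusted p = 0.0131) and by 1.38 in *Adm*+/- mice (0.000783). *Zbtb7b*, a transcription factor of the zinc finger family of *Zbtb16*, rose by 0.54 in WT mice (edgeR adjusted p = 0.0211). *Tsc22d1*, *Tsc22d2*, *Tsc22d4*, *Sgk3*, *Dusp4*, *Dusp5*, *Dusp6* and *Zbtb32* were called in neither genotype. The WT calls of *Dusp10*, *Dusp16* and *Zbtb7b* were lost without WT LPS replicate 9, that of *Dusp16* also without WT PBS replicate 5, and that of *Zbtb7b* also without WT PBS replicate 3 or 4 or WT LPS replicate 11. By edgeR none of the 12 differed between genotypes by the call rule, where 0%, 2.05% and 0.145% of all tested genes were called in PBS, in LPS and in the difference. In that order 0, 2 and 0 had an unadjusted p below 0.05, as had 344, 2275 and 1247 of all 15885 genes.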

How the data were processed

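Total RNA of 12 lungs was made into libraries with the NEBNext Ultra II Directional kit after rRNA depletion. According to the submitters' processing notes and methods, Trim Galore, HISAT2 (mm10) and featureCounts on Gencode genes were used. The authors deposited raw counts per gene, without normalization. The strand option and the Gencode release are not given in the sources used here. Reads carry no molecular identifiers. In each of the 12 same-group pairs the counts differed by more than sampling noise (chi-square over degrees of freedom 9.92 to 112). The labels do not say that mice came from separate litters, so p-values measure the spread between these mice.

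Counts were analysed in R 4.3.3 with edgeR 4.0.16. Protein-coding genes passing filterByExpr were TMM-normalized and tested with glmQLFit and glmQLFTest, with 1 coefficient per group, 8 residual degrees of freedom and 5 contrasts. Benjamini-Hochberg adjustment ran over all 15885 genes. CPM used TMM library sizes, log2 CPM a prior count of 2, and positions and exon lengths came from Gencode M21. Intervals used edgeR's total degrees of freedom, 5.5 to 11.5 over genes. The procedure was tested on simulated data. Alternatives were RLE size factors, DESeq2 1.42.0, limma-voom 3.58.1, no filter, all annotated genes, the libraries of 1 contrast alone, both libraries of lowest protein-coding share left out, and each library left out. The 7 genes, the gene lists and the tests were chosen with earlier results of these data known. The lists were written from general knowledge. Named were the 7 genes, the 3 called genes of smallest p in each list and LPS contrast, list genes called between genotypes, relatives called in an LPS contrast, and the 2 nearest profiles of each of the 7. One gene that this rule names is not reported here. *Akr1c14* in both genotypes, *Srd5a1* and the genes of WT PBS replicate 4 were named after their values were seen. In text, levels are CPM, changes are log2 fold changes and ± is the SE of a change or the SD of a level.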

Additional observations from a re-analysis of the deposited data

How the results depend on the processing

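No paired analysis was possible because the groups share no replicate numbers. RLE size factors and limma-voom moved the median of all genes by less than 0.1. DESeq2 gave *Zbtb16* no adjusted p, so its counts leave that gene out. Causes of the changes below were not tested.

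With RLE size factors *Nr3c1* in WT mice turned to 0.0042, with DESeq2 to 0.0042 and with limma-voom to 0.030. *Dusp1* in *Adm*+/- against WT PBS turned to 0.023 with limma-voom and to 0.13 without both libraries of lowest protein-coding share, where *Nr3c1* in *Adm*+/- mice turned to -0.059. DESeq2 called 1 supply gene in the difference (edgeR 0) and 3 induced genes in *Adm*+/- against WT LPS (edgeR 1). Of all 15885 tested genes DESeq2 called 168 in the difference (edgeR 23) and 803 in *Adm*+/- against WT LPS (edgeR 325). Without both libraries of lowest coding share, 0 receptor partner genes were called in WT mice and 2 induced genes between the genotypes in LPS. There 2465 and 548 of all 16100 tested genes were called. With the 6 WT libraries alone, the WT calls were 2 of the 7 genes, 0 partners, 2 supply genes, 19 induced genes and 1 relative. Of all tested genes 1152 of 15591 were called in that fit, against 2791 of 15885 in the main fit.

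With 1 library left out at a time, WT calls ran from 2 to 4 of the 7 genes (2 without WT LPS replicate 9 or 10, 3 without WT PBS replicate 4 or 5), 0 to 4 partners (0 without WT PBS replicate 5), 2 to 4 supply genes and 1 to 4 relatives (lowest without WT LPS replicate 9). All-gene WT calls ran from 1443 of 16026 (without WT LPS replicate 9) to 3074 of 16098 (without WT PBS replicate 3). Supply genes called ran from 0 to 1 in the difference (1 without WT LPS replicate 11) and in *Adm*+/- against WT LPS, where induced genes ran from 1 to 2 and relatives from 0 to 1. Over all tested genes the calls ran from 5 to 65 in the difference and from 81 to 573 in *Adm*+/- against WT LPS. Log2 changes that crossed 0, none of them called, were *Nr3c1* in WT (-0.19 to 0.18), in *Adm*+/- mice (-0.068 to 0.13), in the difference (-0.12 to 0.25) and between genotypes in PBS (-0.070 to 0.30); *Hsd11b1* in the difference (-0.031 to 0.36) and between genotypes in LPS (-0.24 to 0.082); *Tsc22d3* (-0.039 to 0.67) and *Sgk1* (-0.14 to 0.097) in the difference; *Dusp1* between genotypes in PBS (-0.27 to 0.24); and *Fkbp5* (-0.025 to 0.32) and *Zbtb16* (-0.12 to 0.19) between genotypes in LPS.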
